A study of Mus musculus with 15 samples.

Results

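Homeobox and paired-box genes encode DNA-binding factors that set the identity of organs and body regions, and 55 of them outside the Hox clusters were followed, of 38355 genes in the authors' deposited table. They are a named list, drawn up with earlier results of these data known, so their counts are a description and no independent evidence. They fall into 9 families or small groups. These are the paired-box genes (9), the LIM homeobox genes with Isl1 (9), the sine oculis-related Six2 to Six6 (5), Iroquois (6), Distal-less (6) and NK (7) genes, Msx with Barx and Hmx (4), the paired-like genes Alx, Otx and Pitx (5), and Engrailed with Emx (4). All 55 were found in the table by their Ensembl identifiers. Pax1 and Pax9 are known to carry a paired box without a homeobox, so the set is not strictly one of homeobox genes.

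In mouse embryonic stem cells most such genes are silent or nearly so, and their CpG-rich promoters are a textbook site of Polycomb binding. Polycomb repressive complex 2 (PRC2) methylates lysine 27 of histone H3 through Ezh2, with Suz12 as a core partner. Polycomb repressive complex 1 (PRC1) places ubiquitin on histone H2A through Ring1A (gene Ring1) and Ring1B (gene Rnf2).

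RNA was sequenced from 15 libraries in 5 groups of 3 replicates, called biological in the series' design text. The wild-type group E14-WT is the line E14TG2a. Ezh2-WT carries Ezh2[fl/fl], that is, floxed and undeleted Ezh2, and its genotype is labelled wild type. Ezh2-KO is Ezh2[-/-], Suz12-KO is Suz12[-/-], and Ring1A+B-DKO lacks both Ring1A and Ring1B (Ring1a[-/-]; Ring1b[-/-]). All groups were grown in 2i medium, with a MEK inhibitor at 1 µM, a GSK3 inhibitor at 3 µM and leukaemia inhibitory factor, on gelatin. The labels name no Cre, no number of clones and no wild type of the Suz12-KO or Ring1A+B-DKO line, so in those comparisons with E14-WT the deletion and the line cannot be told apart.

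The authors' deposited table gives each gene 1 log2 fold change per comparison and marks whether the gene was called. It holds no value per sample, no standard error, no p-value and no level, so the error of each value and the depth of each library are unknown here and no test could be made. The words rose and fell are kept for genes that carry the authors' call. Each value below is the first-named group over the second, which for the 3 comparisons with E14-WT is the opposite of the deposited sign, as genes without reads in one of the groups show. Those 3 comparisons share the E14-WT libraries. Missing values were read as no reads in either group of the comparison. A gene without reads in its control has no true fold, yet such genes stood at values as low as 0.15 (Lhx1), and exactly equal values recur among genes with few reads. Sizes are therefore a poor guide to the change of weakly expressed genes, whose true change is unknown here.

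The deleted genes give only a partial check of the labels. In the authors' deposited table Ring1 fell in Ring1A+B-DKO, at -2.03, while Rnf2 stood at 0.17 there without a call. Suz12 stood at -1.04 in Suz12-KO and Ezh2 at -0.14 in Ezh2-KO, neither called, and the removed exons are not named in the labels. The stem cell markers Pou5f1, Sox2, Nanog, Esrrb, Tfcp2l1, Zfp42, Klf2 and Klf4 had values in all 4 comparisons. Of these 8, Klf4 rose in Ring1A+B-DKO (1.04), where 2.38% of all genes did. Nanog was called lower in Ezh2-WT over E14-WT (-1.15), beside 0.247% of all genes. In Ring1A+B-DKO the median of the 8 was -0.22, with 2 above 0 and 6 below. The lowest there were Tfcp2l1 at -0.62 and Sox2 at -0.60, neither called.

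The set stood higher in Ring1A+B-DKO than in E14-WT in nearly every member with reads. A value was present for 53 members in the authors' deposited table, of which 7 rose and 0 fell. That is 13.2% higher, beside 2.38% of all 19693 genes with a value, and the background of decreases is 0.62%. The median log2 fold change of the 53 was 0.65 (quartiles 0.25 and 1.17), beside 0.07 for all genes (quartiles -0.20 and 0.36). Values were above 0 in 50 members (94.3%, beside 55.4% of all genes) and below 0 in Six4, Lhx9 and Lhx4.

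**Figure D1:**
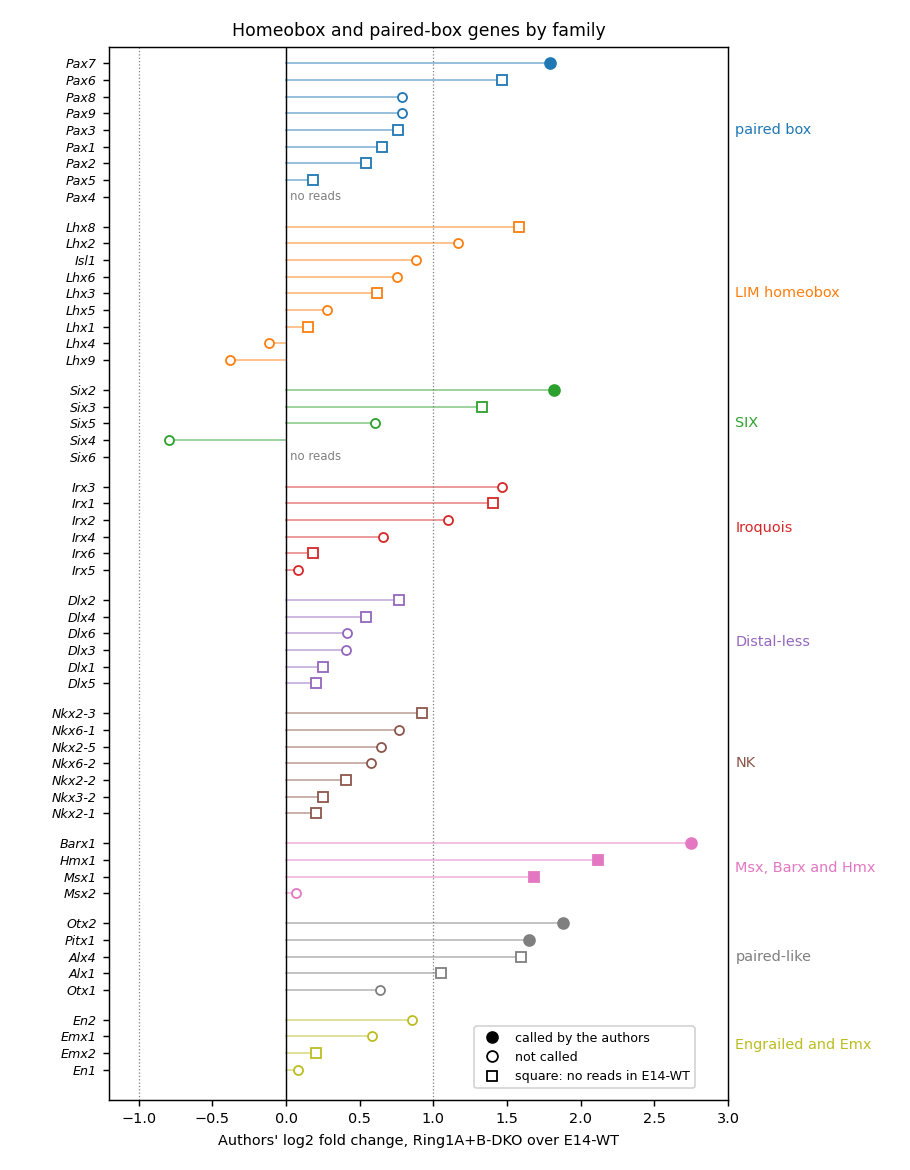
Authors' log2 fold change in Ring1A+B-DKO over E14-WT (x axis) for each of the 55 genes, by family. Filled symbols are genes the authors called, squares are genes with no reads in E14-WT, and dotted lines mark -1 and 1. The 7 called genes lie between 1.65 and 2.75, and the 3 below 0 are Six4, Lhx9 and Lhx4.

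Part of this one-sidedness follows from missing reads. Where E14-WT had no reads the value is bound to be positive, and 24 of the 53 members (45.3%) were of that kind, beside 11.5% of all genes with a value. The other 29 members were not known to lack reads in E14-WT. In 4 of them, Barx1, Otx2, Lhx6 and Nkx6-2, the table cannot settle whether E14-WT had reads. Of the 29, 26 were above 0 (89.7%, beside 49.7% of such genes in the table). Their median was 0.66, beside -0.0019 for all such genes, and 5 of them rose (17.2%, beside 2.40%), Barx1 and Otx2 included. In bulk RNA, more cells of a type with these transcripts and more RNA per cell cannot be told apart.

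Barx1 (ENSMUSG00000021381, chromosome 13, 48662998 to 48666507 in GRCm38), a factor of stomach and molar development, rose most of the set. In the authors' deposited table its log2 fold change was 2.75 in Ring1A+B-DKO, rank 31 of 19693 genes, against -0.30 in Ezh2-KO, 0.18 in Suz12-KO and 0.39 between the wild-type lines. Hmx1 (chromosome 5, 35389108 to 35399730), needed for the outer ear and the eye, had no reads in E14-WT or Suz12-KO and rose by 2.12 in Ring1A+B-DKO. Msx1 (chromosome 5, 37820485 to 37824583), a regulator of tooth and craniofacial growth, rose by 1.69 and had reads in no group but Ring1A+B-DKO. The 3 increases of this small group left out Msx2, which stood at 0.07, a value it shared with 70 other genes.

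Otx2 (ENSMUSG00000021848, chromosome 14, 48657677 to 48673819), which specifies the anterior brain and is also switched on as naive stem cells move towards the epiblast, rose by 1.88 in Ring1A+B-DKO. In the other comparisons of the authors' deposited table it stood at 0.66 in Ezh2-KO, 1.21 in Suz12-KO and 1.08 in Ezh2-WT over E14-WT, none of them called. The value in a wild-type line against E14-WT was thus close to that in Suz12-KO, while the Ezh2-KO value uses no E14-WT library. Pitx1 (chromosome 13, 55825051 to 55836192), which marks the hindlimb, rose by 1.65 and stood at -0.35 in Ezh2-KO and -0.36 in Suz12-KO. Six2 (chromosome 17, 85684277 to 85688274), the keeper of nephron progenitors, rose by 1.82, and stood at -0.15, -0.13 and -0.09 in Ezh2-KO, Suz12-KO and Ezh2-WT. Pax7 (chromosome 4, 139737062 to 139833528), a factor of muscle stem cells and neural crest, rose by 1.79 and lay within 0.11 of 0 in the other 3 comparisons. Apart from Otx2, these called members therefore lay near or below 0 in Ezh2-KO wherever they had a value.

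The 7 called members were also the 7 with the highest values. The uncalled member nearest to them was Alx4 at 1.60 and the lowest called was Pitx1, although the smallest called increase or decrease of any gene was 1.00. In all, 16 members stood at 1 or above, and 43.8% of these were called, beside 35.4% of all genes at 1 or above (6.73% of the table). No member stood at -1 or below, beside 1.37% of all genes.

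The 9 uncalled members at 1 or above came from 5 families. Alx4, at 1.60, and Alx1, at 1.06, shape the face and limbs, and neither had reads outside Ring1A+B-DKO. Lhx8, a factor of forebrain cholinergic neurons and oocytes, stood at 1.58, and Lhx2, of the eye field and forebrain, at 1.17. Pax6, the regulator of eye development, stood at 1.47 and Six3, of the rostral forebrain, at 1.33, again with reads in Ring1A+B-DKO alone. Among the Iroquois genes, which pattern the neural tube and heart, Irx3 stood at 1.47, Irx1 at 1.40 and Irx2 at 1.10. None of these 9 was called in any comparison of the authors' deposited table, so each is given as a value only.

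Promoter windows show how unlike the sequences of the high members are. The 250 bases before the first start listed in the RefSeq table used are printed for the 3 called members of the Msx, Barx and Hmx group, for Otx2, and for Lhx8, the member with the fewest CG dinucleotides, each 5′ to 3′ on the gene's own strand with every CG in capitals. They come from RefSeq on GRCm38.p6 and lie at chr13:48662786-48663035 (Barx1, plus strand), chr5:35388611-35388860 (Hmx1, plus strand), chr5:37824586-37824835 (Msx1, minus strand), chr14:48667645-48667894 (Otx2, minus strand) and chr3:154330561-154330810 (Lhx8, minus strand). For Otx2 this start is 1 of 4 and lies inside the annotated gene, and which start these cells use is not known from the table. The RefSeq starts of Barx1 and Lhx8 also lie inside the annotated genes, and that of Hmx1 lies before the annotated gene.
Barx1: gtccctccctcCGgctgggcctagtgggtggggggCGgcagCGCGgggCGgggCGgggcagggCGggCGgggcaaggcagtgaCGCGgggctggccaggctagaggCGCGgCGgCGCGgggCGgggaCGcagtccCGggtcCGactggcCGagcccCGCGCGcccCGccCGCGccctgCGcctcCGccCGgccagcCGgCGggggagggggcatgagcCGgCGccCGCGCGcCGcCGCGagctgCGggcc
Hmx1: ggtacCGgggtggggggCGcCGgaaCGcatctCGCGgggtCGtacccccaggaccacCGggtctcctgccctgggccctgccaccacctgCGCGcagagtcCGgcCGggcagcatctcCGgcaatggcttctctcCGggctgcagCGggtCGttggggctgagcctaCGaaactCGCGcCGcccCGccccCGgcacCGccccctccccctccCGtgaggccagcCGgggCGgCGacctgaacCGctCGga
Msx1: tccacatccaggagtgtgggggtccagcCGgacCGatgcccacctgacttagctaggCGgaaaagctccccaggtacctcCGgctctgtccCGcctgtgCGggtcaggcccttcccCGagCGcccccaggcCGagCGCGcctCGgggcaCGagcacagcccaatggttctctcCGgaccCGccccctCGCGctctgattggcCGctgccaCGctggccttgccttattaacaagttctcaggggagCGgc
Otx2: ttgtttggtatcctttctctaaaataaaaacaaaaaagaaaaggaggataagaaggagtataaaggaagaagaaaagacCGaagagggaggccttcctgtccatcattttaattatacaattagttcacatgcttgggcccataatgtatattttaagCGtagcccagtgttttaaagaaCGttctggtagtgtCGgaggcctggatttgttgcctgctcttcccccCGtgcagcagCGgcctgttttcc
Lhx8: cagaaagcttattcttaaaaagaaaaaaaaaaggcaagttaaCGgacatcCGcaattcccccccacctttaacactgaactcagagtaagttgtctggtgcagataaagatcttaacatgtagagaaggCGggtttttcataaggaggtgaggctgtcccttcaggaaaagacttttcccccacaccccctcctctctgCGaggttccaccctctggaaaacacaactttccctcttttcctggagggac

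These stretches held 40 CG in Barx1, 29 in Hmx1, 20 in Msx1, 6 in Otx2 and 4 in Lhx8. Over the full 300-base window, which runs 50 bases past the start, 40 of the 55 members could be analysed here. Their median was 19.5 CG (quartiles 13.8 and 29.5), beside 7 for the first window of all 27025 genes and 19 for the 12624 genes that also had a value in Ring1A+B-DKO. A GC content of at least 50% with an observed over expected CG ratio of at least 0.6 was met by 27 of the 40 (67.5%), by 34.3% of all windows and by 62.5% of those with a value. The members were thus richer in CG than promoters at large and close to those of genes with reads.

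Within the set, CG count and fold change were loosely related at most. Called members ranged from 6 (Otx2) to 50 (Barx1), with a median of 33 over 6 windows, and members with a value and no call had a median of 18 over 33. Across the 39 members with both values r was 0.27 by Pearson and rho 0.12 by Spearman, a description across genes that share base composition. The windows of the 4 listed Otx2 starts hold between 6 and 16 CG, and the one used here is the lowest. The homeodomain core motif TAATTA, a palindrome, occurred in 3 of 40 member windows (7.50%: Emx2, Msx2 and Otx2), in 5.31% of all windows and in 2.69% of those with a value.

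**Figure D2:**
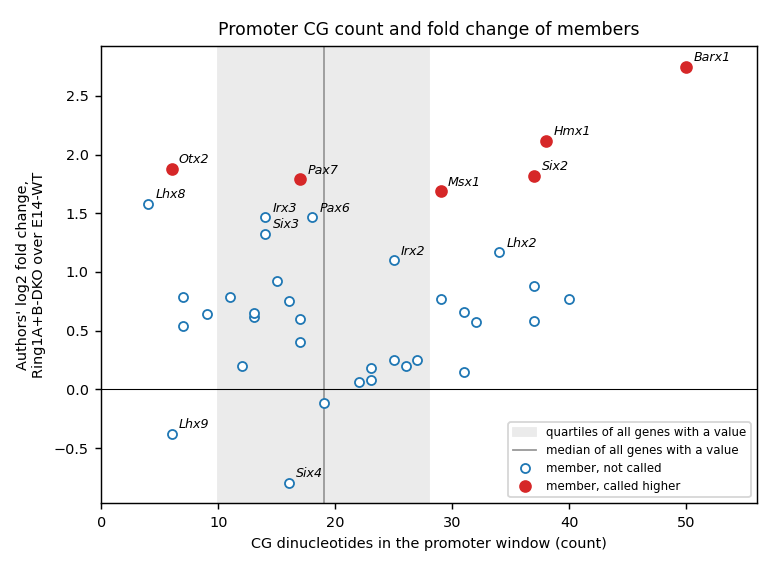
CG dinucleotides in the 300-base promoter window (x axis) against the authors' log2 fold change in Ring1A+B-DKO over E14-WT (y axis) for the 39 members with both values. Red points are called genes, open points uncalled ones, and the grey band spans the quartiles (10 and 28) of all genes with a value. Called genes run from Otx2 at 6 to Barx1 at 50, and the next lowest after Otx2 is Pax7 at 17. Otx2 is drawn at the lowest of its 4 starts (6 to 16), and the called Pitx1 has no window.

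The families differed in level in Ring1A+B-DKO, without a test. The highest median was that of Msx, Barx and Hmx (1.90, 3 of 4 called), followed by the paired-like genes (1.60, 2 of 5 called). Of all genes with a value, 2.38% rose. In the Msx, Barx and Hmx group 2 of the 3 called genes had no reads in E14-WT, so their values were bound to be positive. The sine oculis-related genes with a value had a median of 0.96 and ran from -0.79 for Six4 to 1.82 for Six2. The medians were 0.88 in the Iroquois genes, 0.77 in the paired-box genes, 0.62 in the LIM genes and 0.57 in the NK genes. Distal-less genes (0.41), which pattern limbs, jaws and forebrain interneurons, and Engrailed with Emx (0.39), of the midbrain border and cortex, had the lowest medians. In both, and in the NK genes, there were 0 calls and no member at 1 or above. The LIM and Iroquois genes had 0 calls too. Beside 2.38% of all genes, 0 calls in groups this small says little.

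Among the paired-box genes all 8 with a value were above 0. For 5 of the 8, E14-WT had no reads, so their values were bound to be positive, and the other 3 were above 0 as well. Besides Pax7 and Pax6, Pax8 and Pax9 stood at 0.79 each, Pax3 at 0.76, Pax1 at 0.65, Pax2 at 0.54 and Pax5 at 0.18. Pax4, a gene of the pancreatic islet, had no reads in any group. In the LIM family, Isl1, of motor neurons and heart progenitors, stood at 0.88, Lhx6 at 0.75, Lhx3 at 0.62 and Lhx5 at 0.28. Lhx1, at 0.15, shared its value with 655 other genes, and Lhx4 and Lhx9 stood at -0.11 and -0.38, shared with 536 and 54 other genes. Values held in common by so many genes mark the low end of what these libraries resolve.

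Six4 (chromosome 12, 73099609 to 73113456), a factor of muscle precursors, was the lowest member. In the authors' deposited table it stood at -0.79 in Ring1A+B-DKO without a call, rank 19094 of 19693. It stood at -0.69 in Ezh2-WT over E14-WT, at 0.04 in Suz12-KO and at 0.16 in Ezh2-KO. Six5 stood at 0.60 in Ring1A+B-DKO, and Six6, of the eye and pituitary, had no reads in any group. A gene that overlaps Six6 on the other strand, 4930447C04Rik, rose by 1.68 in Ring1A+B-DKO.

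The NK family reached 0.93 for Nkx2-3, of the gut wall and spleen, with reads in Ring1A+B-DKO alone. Nkx6-1, of motor neurons and beta cells, stood at 0.77, the heart factor Nkx2-5 at 0.64 and Nkx6-2 at 0.57. Nkx2-2, Nkx3-2 and Nkx2-1, the last a factor of lung and thyroid, stood at 0.41, 0.25 and 0.20. In the Distal-less family values ran from 0.20 for Dlx5 to 0.77 for Dlx2, and in Engrailed with Emx from 0.08 for En1 to 0.85 for En2. Of the 53 values in this comparison 25 belonged to 1 gene alone, as did all 7 called ones, and 12 were shared with 50 or more other genes.

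Several members lie next to each other, and neighbours did not always have like values. Six3 and Six2 are 55.0 kb apart on chromosome 17 and stood at 1.33 and 1.82 in Ring1A+B-DKO. Irx3 stood at 1.47 while Irx5, 556 kb away on chromosome 8, stood at 0.08 and Irx6 at 0.18. On chromosome 13 the order Irx1, Irx2 and Irx4 went with 1.40, 1.10 and 0.66. The pairs Dlx1 and Dlx2 (9.43 kb apart; 0.25 and 0.77), Dlx3 and Dlx4 (15.2 kb; 0.40 and 0.54) and Dlx6 and Dlx5 (9.24 kb; 0.41 and 0.20) were all below 1. Pax9 stood at 0.79 beside Nkx2-1 at 0.20, and Pax1 at 0.65 beside Nkx2-2 at 0.41.

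The pattern of missing values showed where the transcripts were found at all. Reads occurred in Ring1A+B-DKO and in no other group for 17 members (30.9%), beside 3.32% of all 38355 genes. They were Pax1, Pax2, Pax5, Pax6, Lhx1, Six3, Irx1, Irx6, Dlx2, Nkx2-1, Nkx2-2, Nkx2-3, Nkx3-2, Msx1, Alx1, Alx4 and Emx2. The numbers of members with reads in Suz12-KO alone or in Ezh2-KO alone were 0 and 0. The trait was not particular to the set. Of the 53 other developmental homeobox genes taken up below, 9 (17%) had reads in Ring1A+B-DKO alone, 1 in Suz12-KO alone and 0 in Ezh2-KO alone. Among all genes with reads in 1 of these 3 groups and in no other of the 5, 58.6% (1275 of 2176) had them in Ring1A+B-DKO, against 440 in Suz12-KO and 461 in Ezh2-KO. Depth per library is unknown, and its part in this was not tested. Values in all 4 comparisons were present for 22 members, and 2, Pax4 and Six6, had none, beside 16911 of 38355 genes.

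**Figure D3:**
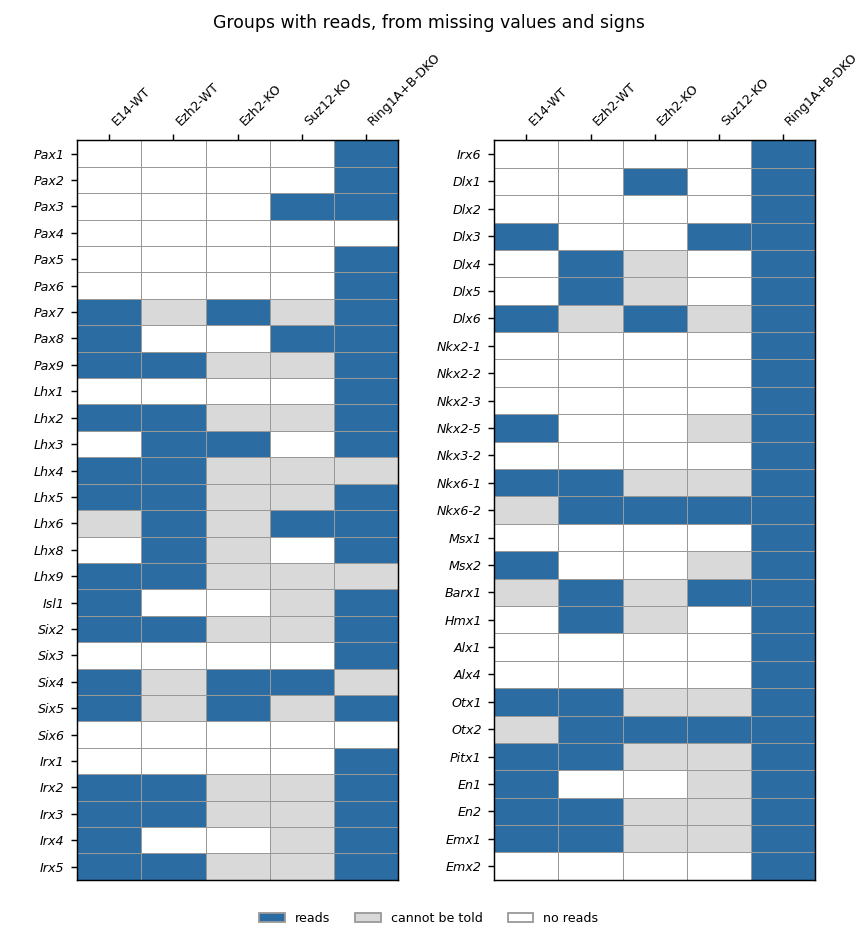
Groups (columns) in which each of the 55 genes (rows) had reads, derived from missing values and signs in the authors' deposited table. Blue marks reads, white none, and grey cells that the table cannot settle. In 17 rows the only blue cell is Ring1A+B-DKO, and the rows of Pax4 and Six6 are white throughout.

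The libraries labelled Ezh2-KO and Suz12-KO had 0 calls in the set. In Ezh2-KO over Ezh2-WT, 28 members had a value, 0 rose and 0 fell, beside 0.0442% and 0.133% of all 18097 genes. At such low backgrounds 0 calls among 28 genes says little. The median was -0.09 (quartiles -0.15 and 0.06), beside -0.01 for all genes. No member stood at 1 or above or at -1 or below, beside 0.227% and 0.448% of all genes. Otx2 was the highest at 0.66, followed by Nkx6-2 at 0.29, Six5 at 0.18 and Six4 at 0.16. Lhx2 was the lowest at -0.37, with Pitx1 at -0.35, Emx1 at -0.33, En2 at -0.32 and Barx1 at -0.30.

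In Suz12-KO over E14-WT, 30 members had a value and again 0 rose and 0 fell, beside 0.0865% and 0.114% of all 18498 genes. The median was -0.10 (quartiles -0.20 and -0.01), beside -0.03 for all genes. Otx2 at 1.21 and Nkx6-2 at 0.89 stood above the rest, of which the highest was Barx1 at 0.18. Otx2 was the 1 member at 1 or above (0.216% of all genes) and En2 the 1 at -1 or below (0.605%). En2 (chromosome 5, 28165694 to 28172166), of the midbrain and cerebellum, was the lowest at -1.01, and stood at -0.32 in Ezh2-KO and at 0.85 in Ring1A+B-DKO, called in none. Irx2 and Pitx1 followed at -0.39 and -0.36. Outside Otx2, Nkx6-2 and En2 the members thus lay within 0.4 of 0 in Suz12-KO.

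Ezh2-KO with Ezh2-WT and Suz12-KO with E14-WT share no library. Of 22 members with both values, 17 had the same sign (77.3%, beside 58.9% of 16426 genes), 14 of them below 0 and 3 above. Ezh2-KO and Ring1A+B-DKO share no library either, and there 9 of 28 members had the same sign (32.1%, beside 46.2% of 16786 genes). In 18 of the 28 the value was below 0 in Ezh2-KO and above 0 in Ring1A+B-DKO. Values above 0 made up 28.6% of members in Ezh2-KO (47.8% of all genes), 26.7% in Suz12-KO (46.4%) and 94.3% in Ring1A+B-DKO (55.4%). The shares of like sign depend on these margins, so by themselves they do not show agreement or its lack gene by gene. Many of the Ezh2-KO values are small and shared, with only 7 of 28 belonging to 1 gene alone, so these signs rest on few reads.

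**Figure D4:**
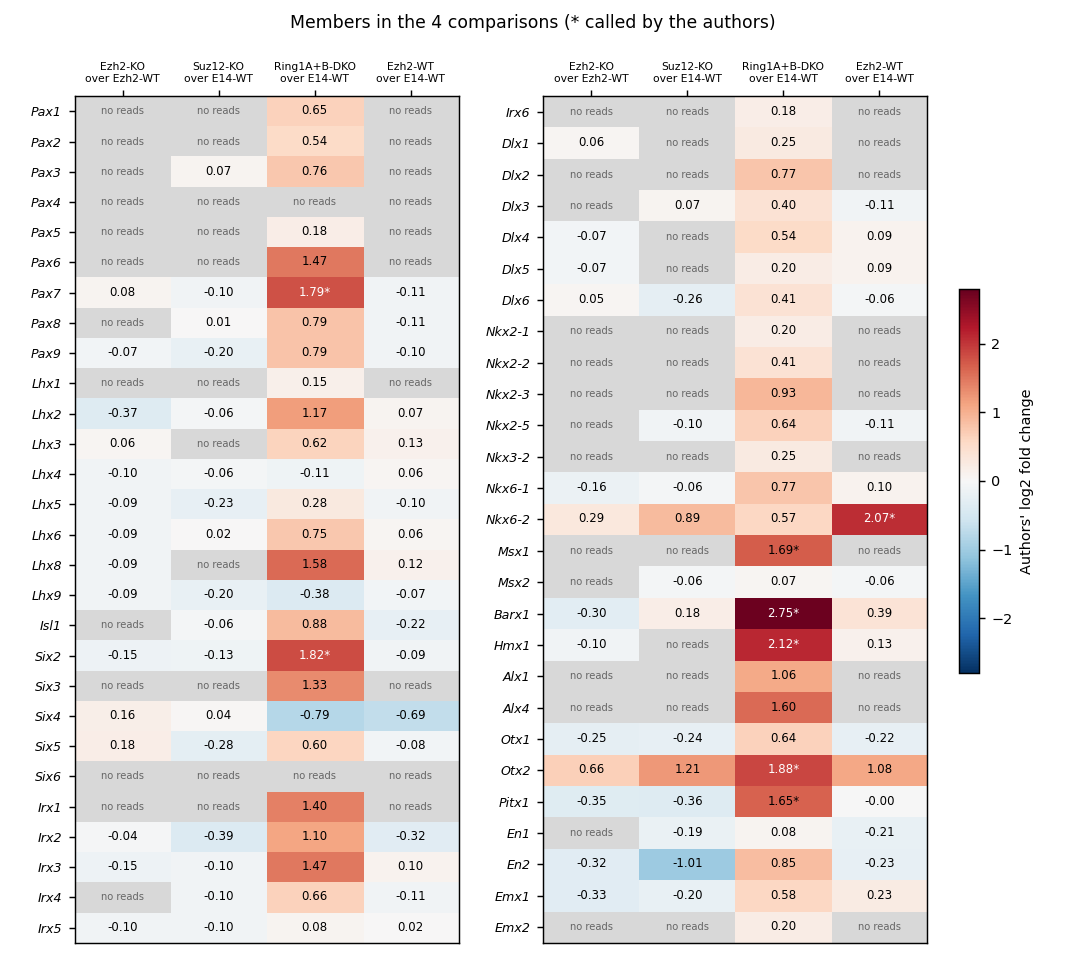
Authors' log2 fold change of each of the 55 genes (rows) in the 4 comparisons (columns), with red above and blue below 0, grey cells without reads and an asterisk where the authors called the gene. The Ring1A+B-DKO column is red in 50 of 53 rows with a value, and Otx2 and Nkx6-2 are the rows above 0 in all 4 columns at values over 0.2.

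The wild-type lines differed in 1 called member. In Ezh2-WT over E14-WT, 34 members had a value, of which 1 was called higher and 0 lower, beside 0.36% and 0.247% of 18604 genes. This was Nkx6-2 (ENSMUSG00000041309, chromosome 7, 139579376 to 139582797), a factor of motor neurons and oligodendrocytes, at 2.07, rank 10 of the table. It stood at 0.29 in Ezh2-KO, 0.89 in Suz12-KO and 0.57 in Ring1A+B-DKO without a call. Nkx6-2 overlaps Inpp5a on the other strand, which stood at 0.25 in the same comparison, not called. The set's median was -0.06 (quartiles -0.11 and 0.10), beside -0.02 for all genes, with 2 members at 1 or above (1.29% of all genes) and 0 at -1 or below (1.03%). After Nkx6-2 and Otx2 the highest member was Barx1 at 0.39.

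**Figure D5:**
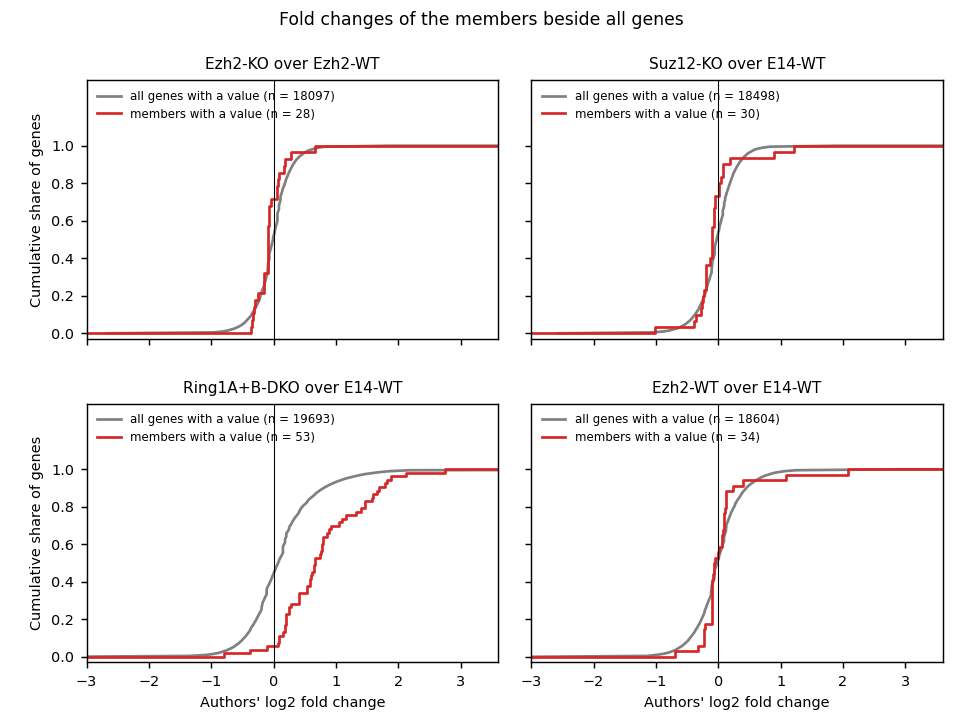
Cumulative share of genes (y axis) by the authors' log2 fold change (x axis, drawn from -3 to 3.6) for the members and for all genes with a value, 1 panel per comparison. The curve of the members lies to the right of that of all genes in Ring1A+B-DKO, where the medians are 0.65 and 0.07. In the other panels the medians differ by less than 0.1.

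Overlapping genes limit some of these values, because the use of strand in counting is not given in the sources used here. Another annotated gene lies across 27 of the 55 members, on the opposite strand in 25. Of 24 such partners in the authors' deposited table, 14 had no value in any comparison. The other 10 had a value in at least 1 comparison. In Ring1A+B-DKO 1 partner was called, 4930447C04Rik across Six6, at 1.68, where 2.38% of all genes rose and 0.62% fell. A single call in so short a list says little. Inpp5a stood at 0.66 there, above the 0.57 of Nkx6-2 that it overlaps. Without a call, Irx3os stood at 0.57, Ext2 (across Alx4) at 0.26, Slc25a21 (across Pax9) at 0.20, Emx2os at 0.18, AI646519 (across Pax1) at 0.15, Six3os1 at 0.12 and Dlx4os at 0.08.

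A further 53 developmental homeobox genes outside the Hox clusters, from the same and related families, had 0 increases in Ring1A+B-DKO. Values for 42 of them were in the authors' deposited table, with a median of 0.33 and 33 above 0 (78.6%), and 1 fell. Of all genes with a value, 2.38% rose, 0.62% fell and 55.4% were above 0, so 0 increases among 42 genes says little. E14-WT had no reads for 12 of the 42, whose values are bound to be positive. Of the other 30, 21 were above 0 (70%, beside 49.7% of such genes in the table). The highest of the 42 were Tlx1 at 1.29, Isl2 at 1.12 and Nkx2-9 at 1.08, none called. The gene that fell was Gbx2, whose protein and Otx2 oppose each other at the midbrain-hindbrain border of the embryo. Gbx2 fell in Ring1A+B-DKO, at -1.97, and stood at -1.22 in Suz12-KO, -1.44 in Ezh2-WT and 0.09 in Ezh2-KO without a call. Nkx1-2 was the next lowest, at -1.52 without a call. The difference between this list and the set was not tested.

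Markers of other cell types also moved in Ring1A+B-DKO, and their part in the values above was not tested. Among all genes with a value there, 2.38% rose and 0.62% fell. The authors' deposited table called 5 of 14 primitive endoderm markers with a value higher (Col4a2, Gata6, Gata4, Col4a1 and Dab2). The list median was 0.91, with 12 above 0 and 2 below, Lamc1 at -0.66 and Lama1 at -0.42. Of 10 trophoblast markers 3 rose (Krt18, Krt8 and Cdh3), with a median of 1.17 and all 10 above 0. Of 10 fibroblast markers 2 rose (Thy1 and Col5a1), with a median of 0.46. In that list 8 were above 0 and 2 below, the lowest Fn1 at -0.56. Of 14 neural progenitor markers 1 rose, Zic1 at 2.11, and 4 fell (Olig2, Tubb3, Stmn2 and Olig1). The median of that list was 0.21, with 9 above 0 and 5 below. Dcx, Postn and Lum had no reads in any group. Summed levels of these lists are not in the table.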

How the data were processed

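RNA-seq was done on 15 libraries in 5 groups of 3. The submitters' processing notes name TopHat, featureCounts, DESeq2 and the build GRCm38 (mm10). Versions, filters and strand settings were not given in the sources. The authors deposited 1 table of log2 fold changes from DESeq2 and yes or no calls for 4 comparisons, with Ensembl release 72 identifiers, per the file headers. How a gene earned its call is not stated.

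The direction of each column was checked on genes with reads in the named group and none in its control, a missing value being read as no reads. All 922 such genes were positive for Ezh2-KO. All were negative for Suz12-KO (1064), Ring1A+B-DKO (2259) and Ezh2-WT (1170), and these 3 columns were turned. The rule was tested on simulated data. With no counts, no model was fitted, no p was computed, and depth and precision per sample are unknown.

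GENCODE mouse release 21 (GRCm38) gave symbols and coordinates and matched 36602 of 38355 identifiers. Promoter windows came from RefSeq, 1 start per gene, the first listed. For 36 of 40 members the bases after the start were found in a transcript of that gene. No window is given for Alx1, Alx4, Dlx3, Dlx4, Dlx5, Dlx6, En2, Irx1, Irx5, Irx6, Lhx5, Otx1, Pax3, Pax4 and Pitx1.

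The members and lists were chosen with earlier results of these data known. Named genes were members called, at an absolute log2 fold change of 1 or more, or extreme in their family, with their neighbours, and in other lists the called genes and at most 2 at each end in Ring1A+B-DKO. Neighbours beyond 100 kb, members of middle rank, the other values of Gbx2 and overlapping genes were added after their values were seen. Python 3.11.15, numpy 2.4.6, pandas 2.3.3 and matplotlib 3.10.9 were used. Alternatives were counts by size, members with a value of their own, centring, members not known to lack reads in the control, the mean, and the sign in the headers.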

Additional observations from a re-analysis of the deposited data

How the results depend on the processing

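No paired analysis was possible because the deposited table holds 1 value per gene and comparison and no value per sample, and leaving out single replicates could not be run for the same reason. The 7 called members in Ring1A+B-DKO all had a value of their own, and the median there was 0.59 after centring on all genes, 0.66 in members not known to lack reads in E14-WT, 1.10 in members with a value of their own, 0.78 as a mean and -0.65 with the sign as in the header. Counted by size alone at 1 and at 0.5, members numbered 16 and 36 in Ring1A+B-DKO, 2 and 3 in Suz12-KO, 2 and 3 in Ezh2-WT over E14-WT, and 0 and 1 in Ezh2-KO. The medians in the other comparisons lay near 0 and changed sign in Ezh2-KO to 0.16 over the 7 members with a value of their own, and in Ezh2-WT to 0.052 as a mean, to which Nkx6-2 at 2.07 and Otx2 at 1.08 contribute. With the sign as in the header they were 0.10 in Suz12-KO and 0.0593 in Ezh2-WT. The causes were not tested otherwise. Without errors per gene, differences between members, families or comparisons could not be tested.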

Other observations

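Partners and cofactors of these factors were counted in the same way. In Ring1A+B-DKO 2.38% of all genes with a value rose and 0.62% fell, so 0 calls in lists this short says little. Of 11 TALE homeobox cofactors, which bind DNA together with other homeodomain proteins, 1 rose in Ring1A+B-DKO (9.09%) and 0 fell. It was Meis1, at 1.80 in the authors' deposited table. The list median was 0.02, and 4 members stood at 0.5 or above (36.4%, beside 18.7% of all genes). The lowest were Tgif2 and Pknox2, both at -0.64. Of 5 Groucho corepressors 0 were called in Ring1A+B-DKO, where Tle6 stood at 1.07 and Tle4 at -0.90 and the list median was 0.48, beside 0.07 for all genes. Tle3 was called higher in Ezh2-WT than in E14-WT, at 1.65.

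Among the partners of sine oculis-related proteins, the Eya and Dach genes, 0 of 5 with a value were called in Ring1A+B-DKO. Here too the shares of all genes are 2.38% higher and 0.62% lower. Eya2 stood highest at 1.26, with no reads in E14-WT, and Eya3 lowest at -0.69, while Dach1 had no reads in any group. Among partners of LIM proteins 0 of 7 were called and 3 stood at 0.5 or above (42.9%), with Lmo4 at 1.08 and Ldb1, the bridging factor of LIM complexes, at -0.90.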
